A study of Drosophila melanogaster with 8 samples.

Results

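The genes described here encode the proteins of the mitochondrial ribosome in Drosophila melanogaster. They were chosen by name, as every gene of the deposited table whose symbol starts with mRpL, for the large subunit, or mRpS, for the small subunit. This gave 73 of the 17807 genes listed, 47 named for the large and 26 for the small subunit. All counts, medians and sums by subunit follow this letter of the symbol. The tissue was the central nervous system (CNS), dissected in L1, the earliest larval stage, and its total RNA was sequenced in 3 genotypes. The double mutant is homozygous for elav5, a deletion of elav, together with a deletion of fne, and gave 3 libraries. The single mutant is homozygous for elav5 alone and gave 2 libraries. The wild type is the laboratory strain Canton-S, which carries neither deletion, with 3 libraries. Flies were kept at 25 °C, the larvae were homozygous and were sorted by a visible marker, and each library was made from 0.1 ug of RNA with a stranded total RNA kit. Both alleles are deletions carried by every cell of the animal. The labels do not say how many larvae were pooled or whether the mutants share the genetic background of Canton-S, so a difference of strain and an effect of the deletions cannot be told apart. elav and fne encode related RNA-binding proteins of neurons that act on how transcripts are spliced and where they end.

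Mitochondria keep a small genome of their own, and the few proteins that it encodes, all of them subunits of the respiratory chain and ATP synthase, are translated inside the organelle by a dedicated ribosome. The RNA of that ribosome is made in the mitochondrion, but its proteins are encoded in the nucleus, translated in the cytoplasm and imported. Many of them descend from bacterial ribosomal proteins and carry the bacterial number, and others were added after mitochondria arose. Among the 73 genes, 42 carry a number of the bacterial series (up to L36 and S21) and 31 a higher number. The number is a name and not an origin, since some higher numbers, such as mRpS24, mRpL47 and mRpL55, belong to counterparts of bacterial proteins in the nomenclature of mammalian structures. Loss of this ribosome impairs respiration, on which neurons depend heavily.

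Reads counted in genes came to between 30038106 and 38056274 per library, and the mitochondrial ribosomal proteins took 33398, 34902 and 40612 of them in the double mutant, 33395 and 45524 in the single mutant, against 47352, 52903 and 57734 in Canton-S. Expression is given as CPM, the share of a library's counted reads that fall in a gene, on a scale where all libraries have the same sum. A count of 3 reads, taken as the floor, is worth 0.0788 CPM in the deepest library and 0.0999 CPM in the shallowest, with regard to counting error alone. The targeted genes followed the labels: elav stood at 53.2, 61.0 and 53.7 CPM in the double mutant, 33.4 and 24.4 CPM in the single mutant, against 602, 620.3 and 599 CPM in Canton-S, and fne at 141, 179 and 127 CPM in the double mutant, 938 and 1129 CPM in the single mutant, against 959.6, 1045 and 1038 CPM in Canton-S. All 38 listed genes of the mitochondrial genome were at 0 in every library, so the RNA of the mitochondrial ribosome and the messages that it translates were not measured. Double mutant replicate 3 and single mutant replicate 2 had the highest and the lowest sum of muscle markers, as given with the marker genes. The other mutant libraries also lay outside the Canton-S range of that sum. Counts past the threshold and median changes are given with and without these libraries. Sums, ratios and most other gene lists are given only with them. In bulk tissue, fewer cells of a type and less RNA per cell cannot be told apart. Whether the libraries of 1 genotype were made from different larvae is not said in the labels, and p-values therefore reflect no more than the spread among these 8 samples, which may be technical.

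The mitochondrial ribosomal proteins were expressed at low to moderate levels. Of the 73 genes, 72 passed the filter of at least 1 CPM in at least 2 libraries. Their group means ran from 3.58 to 58.8 CPM with a median of 11.2 CPM in the double mutant, from 4.81 to 53.8 CPM with a median of 13.0 CPM in the single mutant, and from 7.23 to 59.2 CPM with a median of 17.8 CPM in Canton-S, so no gene entered through 1 genotype alone. A single gene had between 94 and 2244 reads in a library. The gene that failed, mRpL53, was at 0 in all 8 libraries, which allows up to 3 reads in each. Its 829 bases of exon all lie, on the same strand, within exons of CG33155, which was listed at 2.27, 2.07 and 1.40 CPM in the double mutant, 2.36 and 4.28 CPM in the single mutant, against 2.37, 3.12 and 2.65 CPM in Canton-S, so the 0 may not measure mRpL53 itself.

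Per kilobase of exon, the levels averaged over the 8 libraries spanned 6.76 to 47.4 CPM per kb with a median of 18.7. The highest were mRpL28 (47.4 CPM per kb), mRpL23 (37.9), mRpL30 (35.9) and mRpS26 (34.5). The lowest were mRpL21 (6.76 CPM per kb), mRpS6 (9.41), mRpL41 (10.02) and mRpS18B (10.4). The genes are short, with a median of 783 bases of exon (327 to 2078), against 1404 over all genes listed. They lie on all major chromosome arms, 21 on 3R, 17 on 3L, 12 on 2L, 12 on 2R and 11 on X.

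Summed over the 73 genes, the mitochondrial ribosomal proteins took less of the RNA in the mutants. The sums were 1041, 1002 and 1138 CPM in the double mutant, 1112 and 1363 CPM in the single mutant, against 1517, 1602 and 1517 CPM in Canton-S. Every mutant library was below every Canton-S library, single mutant replicate 2 was the highest mutant library, and the ranges of both mutants overlapped. Relative to the mean of Canton-S, the double mutant stood at 68.6% ± 4.54 (SD, n = 3) and the single mutant at 80.1% ± 11.5 (SD, n = 2). Both subunits were lower. Large subunit genes summed to 652 ± 38.9 CPM in the double mutant, 749 ± 101 CPM in the single mutant and 952 ± 31.9 CPM in Canton-S, and small subunit genes to 408 ± 31.4 CPM in the double mutant, 489 ± 76.6 CPM in the single mutant and 593 ± 20.2 CPM in Canton-S (SD, n = 3, 2 and 3).

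The ribosomal proteins of the cytoplasm went the other way. The 93 listed genes summed to 83742, 81148 and 80877 CPM in the double mutant, 61295 and 79506 CPM in the single mutant, against 49169.6, 52745 and 50626 CPM in Canton-S. Set against this sum, a ratio within a library that does not depend on how libraries are scaled, mitochondrial ribosomal proteins came to 12.4, 12.3 and 14.1 CPM per 1000 cytoplasmic CPM in the double mutant, 18.1 and 17.1 in the single mutant, against 30.9, 30.4 and 30.0 in Canton-S. The 3 genotypes did not overlap in this ratio, and single mutant replicates 1 and 2, which differed in both sums, lay close together in it. Per 1000 CPM of respiratory chain and ATP synthase subunits, the values were 166, 151 and 156 in the double mutant, 151 and 158 in the single mutant, against 182, 186 and 187 in Canton-S. A ratio of this kind shows unequal change, not which of its parts changed.

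**Figure D1:**
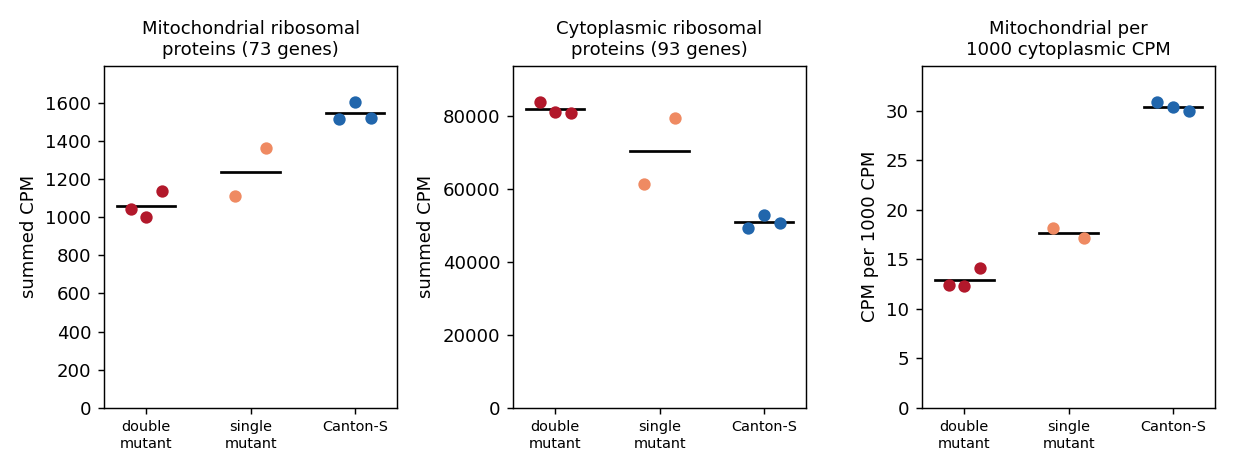
Summed CPM of the 73 mitochondrial ribosomal protein genes (left) and of 93 cytoplasmic ribosomal protein genes (middle), and the first as CPM per 1000 CPM of the second (right), for each library (points) with the group mean (bar), in the double mutant, the single mutant and Canton-S. All 5 mutant libraries lie below the 3 Canton-S libraries in the left panel (1517 to 1602 CPM), all lie above them in the middle panel, and the ratio runs from 12.3 to 14.1 in the double mutant, 17.1 to 18.1 in the single mutant and 30.0 to 30.9 in Canton-S.

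In the double mutant against Canton-S, most mitochondrial ribosomal protein genes fell and none rose. Of the 72 tested, 60 (83.3%) passed the threshold in the lower direction, against 26.7% of all 10575 genes tested, and 0 in the higher direction, against 32.5% of all genes. The threshold is an adjusted p of 0.05 in limma with Benjamini-Hochberg adjustment over all genes tested, changes are log2 ratios of CPM + 1 with their standard error (SE), and 60 of the 72 also had an unadjusted p under 0.05. The median change of the 72 genes was -0.67, with the middle part of them (the interquartile range) between -0.85 and -0.43, whereas the median over all genes was 0.07. In 65 genes every double mutant library was below every Canton-S library, which held for 31.9% of all genes. Without any 1 of the 8 libraries the count of falls stayed between 50 and 62, and 48 of the 60 genes passed in every alternative fit. The other 12 lost the call without at least 1 library, with a highest adjusted p between 0.0531 (mRpL3) and 0.130 (mRpS22). They were mRpL3, mRpL23, mRpL24, mRpL40, mRpL46, mRpS9, mRpS17, mRpS18B, mRpS18C, mRpS21, mRpS22 and mRpS34. Over all genes called, 54.9% were higher, or 41.3% after quantile normalization.

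**Figure D2:**
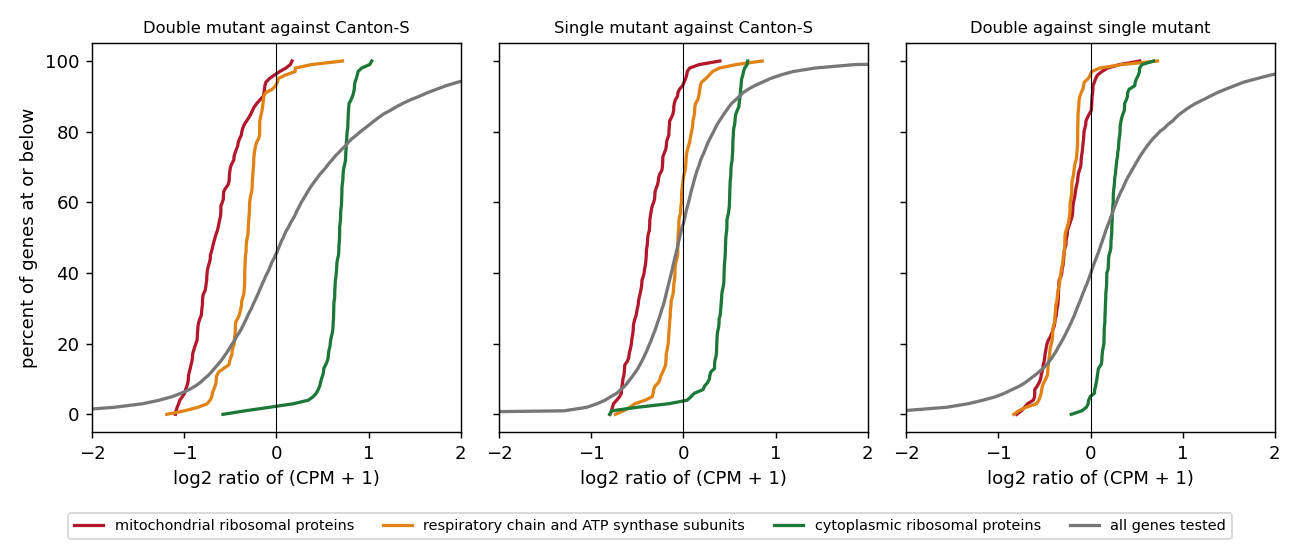
Cumulative percent of genes at or below a log2 ratio of CPM + 1, for mitochondrial ribosomal proteins (72 genes tested), respiratory chain and ATP synthase subunits (66), cytoplasmic ribosomal proteins (86) and all 10575 genes tested, in the 3 comparisons. The curve of mitochondrial ribosomal proteins lies left of that of all genes over most of its range in each panel, with medians of -0.67, -0.39 and -0.26 against 0.07, -0.04 and 0.14.

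Markers of several cell types changed in the same comparison, in which 32.5% of all genes tested were higher and 26.7% lower. Lists of 6 or 7 genes are too short to set a count of 3 apart from these shares. Values given in brackets after a gene are its log2 change. Neuron markers were lower in the double mutant, with 6 of 7 past the threshold and summed levels of 4406 to 5050 CPM in the double mutant, 6983 to 7626 CPM in the single mutant and 8324 to 8683 CPM in Canton-S. They included Snap25 (-5.71), Cadps (-1.17) and nSyb (-1.09), all of the synaptic release machinery. To the digits given, the value of Snap25 equals the lowest change over all 10575 genes tested. The median of the 7 neuron markers was -0.93. Neuroblast and progenitor markers were higher, with 6 of 7 past the threshold and sums of 949 to 1223 CPM in the double mutant, 313 to 377 CPM in the single mutant and 276 to 304 CPM in Canton-S. They included ase (3.62), insc (2.87) and grh (1.97), which act in neural stem cells. Of glia markers 3 of 7 fell, wrapper (-1.48), Gat (-0.67) and alrm (-0.37), with sums of 3807 to 4738 CPM in the double mutant, 5412.5 to 6518 CPM in the single mutant and 5065 to 5361.5 CPM in Canton-S. Markers of tissues outside the CNS were present: 5 of 7 muscle markers rose in the double mutant, with sums of 2283 to 14216 CPM in the double mutant, highest in replicate 3, 699 to 2440.5 CPM in the single mutant, lowest in replicate 2, and 1188 to 1527 CPM in Canton-S. The muscle genes Tm2 (2.71), Mlc2 (2.31) and sls (2.13) were among them. Gut markers, of which 3 of 6 rose, namely Amy-p (3.20), Mal-A1 (3.75) and alphaTry (3.25), summed to 21.7 to 294 CPM in the double mutant, 7.19 to 15.5 CPM in the single mutant and 4.905 to 36.1 CPM in Canton-S. Trachea and cuticle markers, of which 3 of 6 tested rose, namely btl (0.75), pio (1.65) and serp (1.69), summed to 210.0 to 359 CPM in the double mutant, 168 to 234 CPM in the single mutant and 170.4 to 188 CPM in Canton-S. Of hemocyte markers 3 of 6 rose, NimC1 (1.91), srp (1.28) and eater (0.98). Their sums were 80.2 to 157 CPM in the double mutant, 34.4 to 66.8 CPM in the single mutant and 103 to 152 CPM in Canton-S. The gut and the hemocyte sums of the double mutant overlapped those of Canton-S. Of 4 fat body markers tested 0 passed, with values of apolpp (-0.56), Yp1 (0.42) and Fbp1 (-2.42) for those with the smallest p, and sums of 494 to 988 CPM in the double mutant, 549.7 to 616 CPM in the single mutant and 888 to 1449 CPM in Canton-S. In the single mutant, whose mitochondrial ribosomal protein sums were also below those of Canton-S, the sums did not overlap those of Canton-S for neuron, neuroblast and glia markers, of which neuron markers were lower and the others higher, nor for fat body and hemocyte markers, which were lower. None of these markers was at 0 in every library. Their part in the lower mitochondrial ribosomal protein levels was not tested. Without both double mutant replicate 3 and single mutant replicate 2, the libraries at the ends of the muscle range, the count of falls in the double mutant against Canton-S was 63 and the median -0.75.

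The falls were spread over both subunits and both ranges of numbers. By the letter of the symbol, 38 of 46 large subunit genes fell (median -0.68), and 22 of 26 small subunit genes (median -0.61). The latter include mRpS30 and mRpS18A, whose mammalian counterparts lie in the large subunit. Of the genes with bacterial numbers 35 of 42 fell (median -0.67), and of those with higher numbers 25 of 30 (median -0.66). By position, 7 of 11 genes on X fell (median -0.44) and 53 of 61 on autosomes (median -0.72). By level, 25 of the 36 genes above the median CPM fell (median -0.48) and 35 of the 36 at or below it (median -0.76). Across the 72 genes the change and the mean CPM had a Spearman correlation of 0.48, and the change and the exon length one of 0.30. These are descriptions across genes that share libraries, and the change is itself computed from CPM values that enter the mean.

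The largest fall belonged to mRpS24, a protein that in mammals lies in the head of the small subunit (chromosome 3R, 24162829 to 24163545, minus strand, Release 6 assembly, as are the positions that follow). Its transcript stood at 6.29, 6.34 and 7.34 CPM in the double mutant, 10.7 and 12.8 CPM in the single mutant, against 15.1, 16.7 and 14.4 CPM in Canton-S. The 3 genotypes did not overlap, and the change between the double mutant and Canton-S was -1.10 (SE 0.12, adjusted p = 0.000169). In the annotation 55.3% of its exon bases are shared with TBC1d7 on the opposite strand. TBC1d7 changed by -0.34 in the same comparison (adjusted p = 0.0734). How the authors' counting used strand is not given in the sources used here, so reads of the genes of such a pair cannot be told apart.

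In the large subunit the largest fall was that of mRpL48, which lies in the central protuberance of mammalian mitochondrial ribosomes (chromosome 2L, 1710462 to 1711465, plus strand). It measured 7.26, 6.43 and 5.69 CPM in the double mutant, 8.16 and 9.07 CPM in the single mutant, against 15.9, 14.3 and 14.2 CPM in Canton-S. All mutant libraries were below Canton-S, and the double mutant was below the single mutant, with a change of -1.09 (SE 0.12, adjusted p = 0.000186) between the double mutant and Canton-S. Of its exon bases 20.8% are shared with frtz on the opposite strand, and frtz rose by 2.07 in the double mutant (adjusted p = 1.18e-05), opposite to mRpL48. Another gene of the central protuberance, mRpL18, whose bacterial counterpart binds the 5S ribosomal RNA (chromosome 2R, 12756434 to 12757173, plus strand), measured 6.26, 6.08 and 6.98 CPM in the double mutant, 9.06 and 11.7 CPM in the single mutant, against 13.5, 14.6 and 12.5 CPM in Canton-S. It fell by 0.96 on the log2 scale in the double mutant (SE 0.13, adjusted p = 0.000505), and the single mutant lay between the others without overlap. Of the 5 genes placed here, mRpL40 (-0.46) and mRpL46 (-0.51) also fell, and mRpL38 did not pass the threshold (-0.14, adjusted p = 0.238).

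The stalks of the large subunit are mobile arms that receive translation factors and move tRNAs, and all 4 of their genes fell by nearly the same amount in the double mutant. mRpL12, the counterpart of the bacterial protein that recruits elongation factors (chromosome 3L, 8956791 to 8957584, plus strand), measured 12.5, 13.9 and 18.04 CPM in the double mutant, 13.9 and 14.97 CPM in the single mutant, against 24.9, 26.5 and 24.4 CPM in Canton-S. The mutants overlapped one another and both lay below Canton-S, with a change of -0.75 (SE 0.14, adjusted p = 0.00221) in the double mutant. mRpL10, which anchors mRpL12, changed by -0.76, mRpL11 at the stalk base by -0.74, and mRpL1, which forms the stalk on the other side, by -0.70. Their adjusted p-values were 0.00251, 0.00886 and 0.0027. Genes grouped by role were put together with these values known, so no group was tested.

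Proteins that in bacteria lie near the peptidyl transferase centre, where peptide bonds form, gave smaller values. mRpL27 (-0.63), mRpL3 (-0.42) and mRpL2 (-0.41) fell, with adjusted p of 0.00558, 0.0142 and 0.00578. mRpL16 changed by -0.19 and did not pass (adjusted p = 0.237). The median of the 4 was -0.42, against -0.74 for the 4 stalk genes. Both groups were made with the values known, and the difference between them was not tested.

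Along the tunnel through which the new protein leaves, and at its exit, 5 of 7 genes fell. mRpL4, a tunnel wall protein (chromosome 2L, 16328059 to 16329132, minus strand), had 12.5, 11.3 and 13.4 CPM in the double mutant, 16.3 and 17.6 CPM in the single mutant, against 22.6, 25.3 and 27.1 CPM in Canton-S, and a change of -0.95 (SE 0.11, adjusted p = 0.000195) in the double mutant. mRpL17, at the rim of the exit (chromosome 3L, 264779 to 265932, plus strand), had 14.1, 13.9 and 14.2 CPM in the double mutant, 21.6 and 25.4 CPM in the single mutant, against 26.3, 25.9 and 27.98 CPM in Canton-S. Its 3 double mutant libraries were below all others, the single mutant lay just below Canton-S, and the change in the double mutant was -0.88 (SE 0.09, adjusted p = 0.000128). Of the exon bases of mRpL17, 23.6% are shared with CG34263 on the opposite strand. mRpL32 (-0.77), mRpL23 (-0.57) and mRpL24 (-0.50) fell as well. Neither mRpL22, in the tunnel wall (-0.13, adjusted p = 0.187), nor mRpL45, which in mammals holds the ribosome at the inner membrane (-0.13, adjusted p = 0.335), passed the threshold. Without double mutant replicate 3, mRpL45 passed, at -0.24 (adjusted p = 0.0397).

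Among the other large subunit genes, mRpL21 (chromosome 3L, 19253290 to 19255061, minus strand) measured 6.70, 7.86 and 8.26 CPM in the double mutant, 9.06 and 10.99 CPM in the single mutant, against 14.6, 18.9 and 15.3 CPM in Canton-S. Every mutant library was below Canton-S, and the change in the double mutant was -1.0 (SE 0.14, adjusted p = 0.000661). mRpL41 (chromosome 2R, 15217024 to 15217617, minus strand), measured 3.55, 2.90 and 4.73 CPM in the double mutant, 4.86 and 6.80 CPM in the single mutant, against 8.26, 8.90 and 7.62 CPM in Canton-S, with a change of -0.99 (SE 0.18, adjusted p = 0.00254) in the double mutant. mRpL50 (chromosome 3L, 7243080 to 7243933, minus strand) measured 10.8, 10.99 and 12.4 CPM in the double mutant, 14.9 and 21.4 CPM in the single mutant, against 23.9, 23.8 and 21.5 CPM in Canton-S, and its change in the double mutant was -0.96 (SE 0.14, adjusted p = 0.000773). In these 3 genes the genotypes did not overlap, and mRpL21 and mRpL41 were also among the lowest of all 72 genes per kilobase. The added 1 CPM pulls the fold change of genes low in CPM, such as mRpL41, towards 0. It acts on CPM and not on CPM per kilobase.

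**Figure D3:**
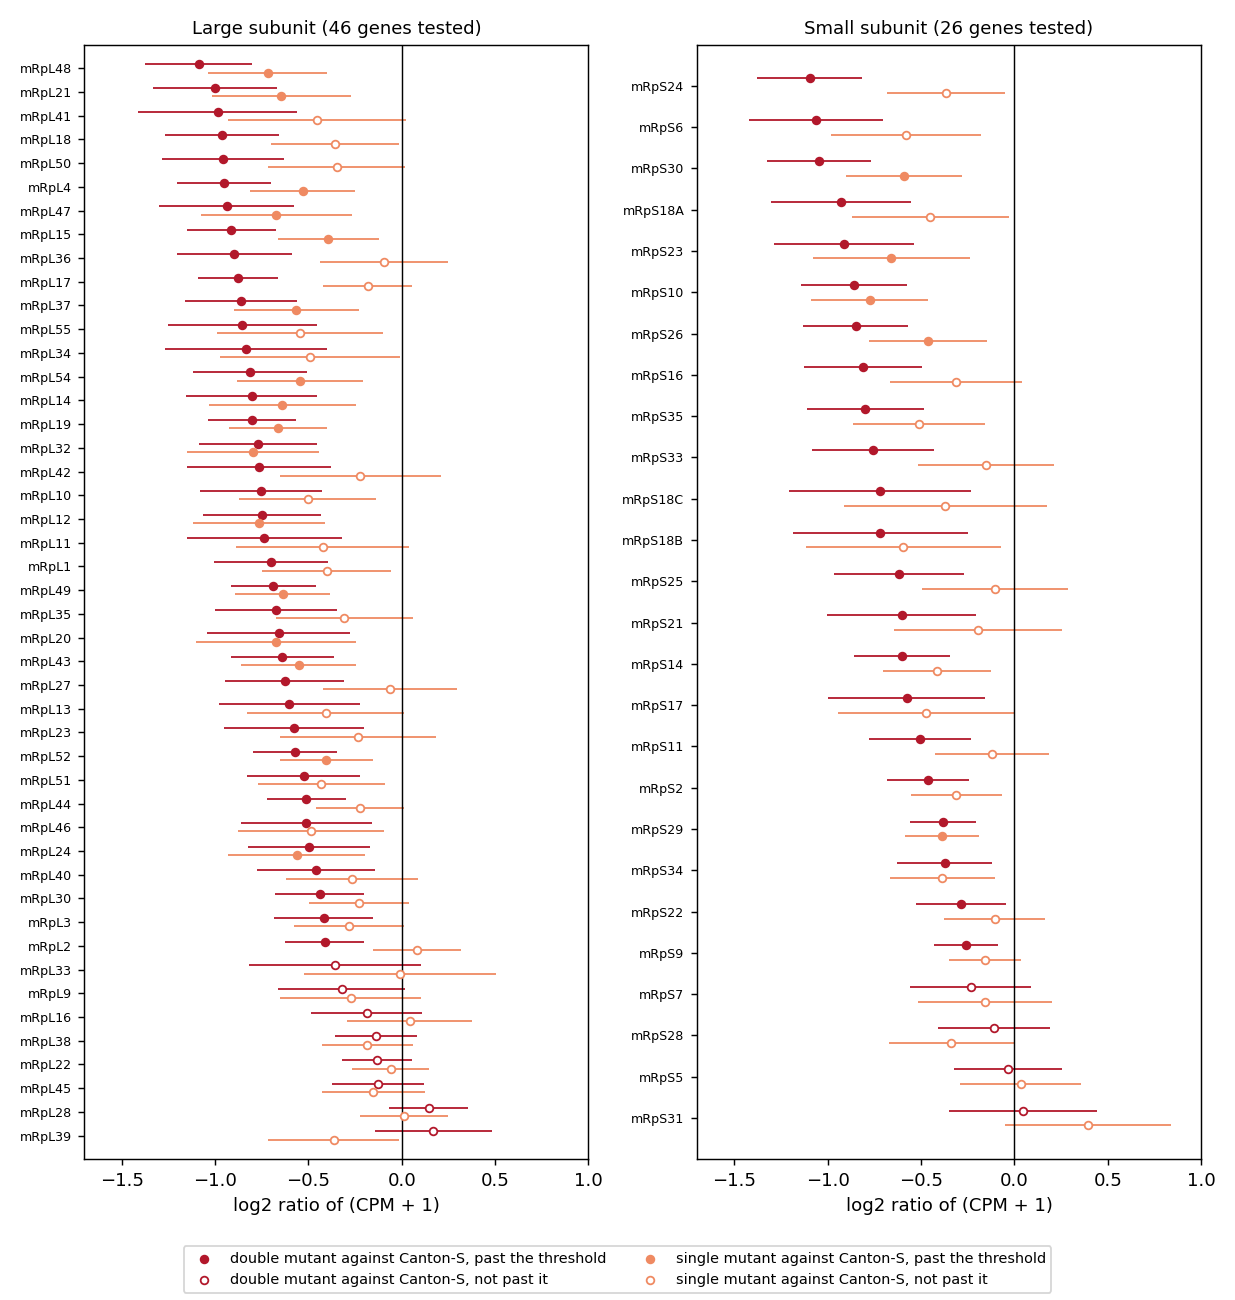
Log2 ratio of CPM + 1 with its 95% confidence interval (limma) for each of the 72 genes tested, by subunit and sorted by the double mutant value. Dark points are the double mutant against Canton-S and light points the single mutant against Canton-S, filled where the adjusted p is under 0.05. Filled dark points make up 38 of 46 rows of the large and 22 of 26 of the small subunit, and all of them lie below 0.

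In the small subunit, the head, the platform and the body hold the messenger RNA and the decoding centre. Of the platform genes 4 were taken, mRpS6, mRpS11, mRpS18C and mRpS21, and all 4 fell (median -0.66). mRpS6, whose bacterial counterpart pairs with S18 (chromosome 3L, 4364550 to 4365243, plus strand), had 3.24, 3.39 and 4.12 CPM in the double mutant, 4.46 and 6.47 CPM in the single mutant, against 8.52, 8.66 and 8.43 CPM in Canton-S, and a change of -1.06 (SE 0.15, adjusted p = 0.000713) in the double mutant. The fly has 3 genes with homology to bacterial S18, which are described side by side although the mammalian S18A sits in the large subunit. mRpS18A had 9.13, 7.63 and 10.1 CPM in the double mutant, 11.1 and 14.7 CPM in the single mutant, against 18.5, 20.1 and 15.2 CPM in Canton-S (change -0.93, SE 0.16, adjusted p = 0.00181 in the double mutant). mRpS18B had 5.61, 6.66 and 8.54 CPM in the double mutant, 5.89 and 9.58 CPM in the single mutant, against 11.5, 13.2 and 11.1 CPM in Canton-S (change -0.72, SE 0.20, adjusted p = 0.0164). mRpS18C had 6.29, 5.11 and 6.72 CPM in the double mutant, 5.83 and 10.7 CPM in the single mutant, against 9.35, 11.5 and 10.8 CPM in Canton-S (change -0.72, SE 0.21, adjusted p = 0.0195). In all 3 the double mutant was below Canton-S without overlap, and the 95% confidence intervals of the 3 changes overlapped. mRpS11 (-0.50) and mRpS21 (-0.60) are the other platform genes.

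In the head, mRpS10 (chromosome 3R, 15229665 to 15230516, plus strand) had 10.8, 10.7 and 13.95 CPM in the double mutant, 12.8 and 12.2 CPM in the single mutant, against 21.2, 23.4 and 21.8 CPM in Canton-S, and its change in the double mutant was -0.86 (SE 0.12, adjusted p = 0.000617). mRpS14 (-0.60) and mRpS9 (-0.26) fell too, while mRpS7 changed by -0.23 (adjusted p = 0.177). In the body, mRpS16 (-0.81) and mRpS17 (-0.58) fell and mRpS5, whose bacterial counterpart acts in decoding accuracy, did not pass. mRpS29, known in mammals as the GTP-binding protein DAP3, fell by 0.38 in the double mutant (adjusted p = 0.0036). mRpS30 (chromosome X, 15786047 to 15788288, plus strand), numbered as small but found in the large subunit of mammalian mitochondrial ribosomes, had 25.7, 26.8 and 31.9 CPM in the double mutant, 36.4 and 41.3 CPM in the single mutant, against 63.1, 62.9 and 51.4 CPM in Canton-S. The 3 genotypes did not overlap, and the change in the double mutant was -1.05 (SE 0.12, adjusted p = 0.000197). mRpS26, the highest small subunit gene per kilobase, averaged 20.4 ± 1.88 CPM in the double mutant, against 37.4 ± 1.07 CPM in Canton-S, a change of -0.85 (SE 0.12, adjusted p = 0.000637).

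The 12 genes that did not pass in the double mutant were mRpL9, mRpL16, mRpL22, mRpL28, mRpL33, mRpL38, mRpL39, mRpL45, mRpS5, mRpS7, mRpS28 and mRpS31. Of these, mRpL9, mRpL16, mRpL22, mRpL33 and mRpS7 still had every double mutant library below every Canton-S library. mRpL9 (-0.32, adjusted p = 0.0897) passed in edgeR (0.0465), in DESeq2 (0.0317), with TMM (0.0426), median-ratio (0.0408) and quantile scaling (0.00724), and without double mutant replicate 3 (0.0389). After quantile normalization mRpL16, mRpL33, mRpL38, mRpL45 and mRpS7 passed as well. The smallest change was that of mRpS5 (chromosome 3L, 24537236 to 24543534, plus strand), which had 47.8, 43.8 and 46.9 CPM in the double mutant, 40.7 and 57.6 CPM in the single mutant, against 44.5, 48.6 and 49.01 CPM in Canton-S. Its change of -0.04 had a 95% confidence interval of -0.32 to 0.25, which leaves out the median of the 72 genes. mRpS31 (chromosome 3L, 16005193 to 16006599, plus strand), had 24.2, 22.9 and 33.4 CPM in the double mutant, 28.997 and 39.8 CPM in the single mutant, against 26.3, 27.3 and 23.4 CPM in Canton-S. It changed by 0.05 (-0.35 to 0.44) in the double mutant, and in the single mutant both libraries were above Canton-S (0.40, SE 0.19, adjusted p = 0.184). mRpS28 (-0.11, interval -0.41 to 0.19) and mRpL45 (-0.13, interval -0.37 to 0.12) complete the 4 smallest changes.

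mRpL28 (chromosome 2L, 4973976 to 4975316, plus strand), the highest gene per kilobase, had 60.97, 59.3 and 56.3 CPM in the double mutant, 50.2 and 57.3 CPM in the single mutant, against 51.1, 49.7 and 58.97 CPM in Canton-S. The groups overlapped in every pairing, and the interval of the change in the double mutant was -0.07 to 0.35. mRpL39 (chromosome 3L, 14997981 to 14999666, minus strand), had 38.1, 29.1 and 35.1 CPM in the double mutant, 20.3 and 26.2 CPM in the single mutant, against 27.4, 31.3 and 31.6 CPM in Canton-S. Its double mutant and Canton-S libraries overlapped (0.17, SE 0.14, adjusted p = 0.308), while both single mutant libraries were below all others.

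The annotation was examined for genes that could lend or take reads. Of the 73 genes, 43 share exon bases with another gene, 42 of them on the opposite strand and 3 on the same strand. In the double mutant against Canton-S, 24 of the 30 genes that share no exon base fell (median -0.70), and 36 of the 42 tested genes that do (median -0.63). The 37 opposite-strand partners that were tested gave 6 rises and 13 falls with a median of -0.195. Of all genes tested, 32.5% rose and 26.7% fell in this comparison.

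In the single mutant against Canton-S, fewer genes passed. Of the 72, 21 (29.2%) fell, against 11.8% of all genes tested, and 0 rose, against 8.29%, while 39 had an unadjusted p under 0.05 (in edgeR 16 and in DESeq2 23 fell). The median change was -0.39, against -0.04 over all genes, and 67 of the 72 values were below 0, against 5726 of 10575 over all genes. Every single mutant library was below every Canton-S library in 53 genes, a pattern of 30.7% of all genes, and above in 1 gene, mRpS31, a pattern of 22.9%. The falls were 16 of 46 genes in the large subunit and 5 of 26 in the small subunit. All 21 had also fallen in the double mutant, but both comparisons use the same Canton-S libraries.

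The 4 largest falls in the single mutant were those of mRpL32 (-0.80, SE 0.15, adjusted p = 0.0128), mRpS10 (-0.78, SE 0.14, adjusted p = 0.00989), mRpL12 (-0.77, SE 0.15, adjusted p = 0.0142) and mRpL48 (-0.72, SE 0.14, adjusted p = 0.0128). mRpL32, a bacterial-type protein of the tunnel exit (chromosome 3R, 31252872 to 31253686, plus strand), had 7.85, 9.10 and 9.25 CPM in the double mutant, 7.59 and 9.58 CPM in the single mutant, against 15.8, 17.3 and 13.8 CPM in Canton-S. Its mutant libraries overlapped each other and lay below Canton-S. For mRpL32, mRpS10 and mRpL12 the changes in both mutants were close in size, -0.77, -0.86 and -0.75 in the double mutant. The direct differences between the mutants were 0.03 (interval -0.33 to 0.38), -0.08 (-0.40 to 0.23) and 0.02 (-0.33 to 0.37). The call was lost for mRpL32 without single mutant replicate 1 (adjusted p = 0.0527), for mRpS10 without single mutant replicate 2 (0.0518) and for mRpL48 without Canton-S replicate 1 (0.0526) and after quantile normalization (0.132). For mRpL12 it was lost without Canton-S replicate 2 (0.0503), with the replicate number as a block (0.0524), and without either single mutant library. Of the 21, only mRpL19 (-0.66, SE 0.11, adjusted p = 0.00917) and mRpL49 (-0.64, SE 0.11, adjusted p = 0.00927) passed in every alternative fit. mRpL19 had 12.8, 11.9 and 13.3 CPM in the double mutant, 14.05 and 14.1 CPM in the single mutant, against 22.6, 25.2 and 21.02 CPM in Canton-S. mRpL49 had 11.6, 11.2 and 12.05 CPM in the double mutant, 11.2 and 12.99 CPM in the single mutant, against 18.8, 19.1 and 20.1 CPM in Canton-S. In both genes every mutant library was below every Canton-S library.

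The count of falls in the single mutant depended on single libraries. It was 6 without Canton-S replicate 1, 6 without replicate 2 and 12 without replicate 3, 4 without single mutant replicate 1 and 8 without replicate 2, and 13, 11 and 24 without double mutant replicates 1, 2 and 3, which enter through the shared estimate of spread. Without both single mutant replicate 2 and double mutant replicate 3 it was 29. Single mutant replicate 1 was below replicate 2 in 68 of the 72 genes. The median change was -0.24 without replicate 1 and -0.51 without replicate 2, so its direction did not rest on either of them.

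Between the mutants, most values were lower in the double mutant, but the share of falls past the threshold was near that of all genes. Of the 72 genes 16 fell in the double mutant against the single mutant, against 16.7% of all genes tested, and 1 rose, mRpL39, against 26.8%. The 16 are 22.2% of the 72, not far from that background. The median was -0.26 against 0.14 over all genes, and 61 of 72 values were below 0, against 4192 of 10575 over all genes. This median was -0.10 without single mutant replicate 2, which leaves 1 library in that group. The groups did not overlap in the lower direction in 28 genes, a pattern of 24.1% of all genes, and in the higher direction in 1 gene, a pattern of 39.5%. Of all genes called, 61.6% were higher in the double mutant, or 51.3% with TMM scaling, 50.6% with median-ratio scaling and 43.0% after quantile normalization. Of the 16 falls, 4 genes had also fallen in the single mutant against Canton-S, while 12 had not passed there.

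The largest of these falls were mRpL36 (-0.80, SE 0.15, adjusted p = 0.00373), mRpS24 (-0.73, SE 0.14, adjusted p = 0.00386), mRpL17 (-0.70, SE 0.10, adjusted p = 0.00125) and mRpL18 (-0.61, SE 0.15, adjusted p = 0.0124). mRpL36, a small bacterial-type protein of the large subunit (chromosome 3L, 8124584 to 8125132, minus strand), had 4.46, 4.42 and 5.63 CPM in the double mutant, 8.32 and 9.9998 CPM in the single mutant, against 9.55, 10.1 and 9.78 CPM in Canton-S. Its double mutant libraries were below all others, and the single mutant overlapped Canton-S, with a change of -0.09 (interval -0.44 to 0.25) there. mRpL36, mRpS24, mRpL17 and mRpL2 passed in every alternative fit, and mRpL18 did not without single mutant replicate 2 (adjusted p = 0.0808). mRpL39 rose by 0.54 (SE 0.15, adjusted p = 0.0235), a call lost without single mutant replicate 1 (adjusted p = 0.138), double mutant replicate 1 (0.0611) or double mutant replicate 3 (0.0505), and lost under TMM, median-ratio and quantile scaling and in edgeR.

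The count of falls between the mutants moved as well. It was 25 without single mutant replicate 1, 4 without replicate 2, 9, 8 and 19 without double mutant replicates 1, 2 and 3, and 11, 11 and 12 without Canton-S replicates 1, 2 and 3, and it was 5 without both single mutant replicate 2 and double mutant replicate 3. The median was -0.42 without single mutant replicate 1, -0.10 without replicate 2 and -0.29 without double mutant replicate 3. Without both single mutant replicate 2 and double mutant replicate 3 the median was -0.17. In group means, 56 of the 72 genes were lowest in the double mutant, intermediate in the single mutant and highest in Canton-S, 69 were lower in the double mutant than in Canton-S, and 66 lower in the single mutant than in Canton-S.

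**Figure D4:**
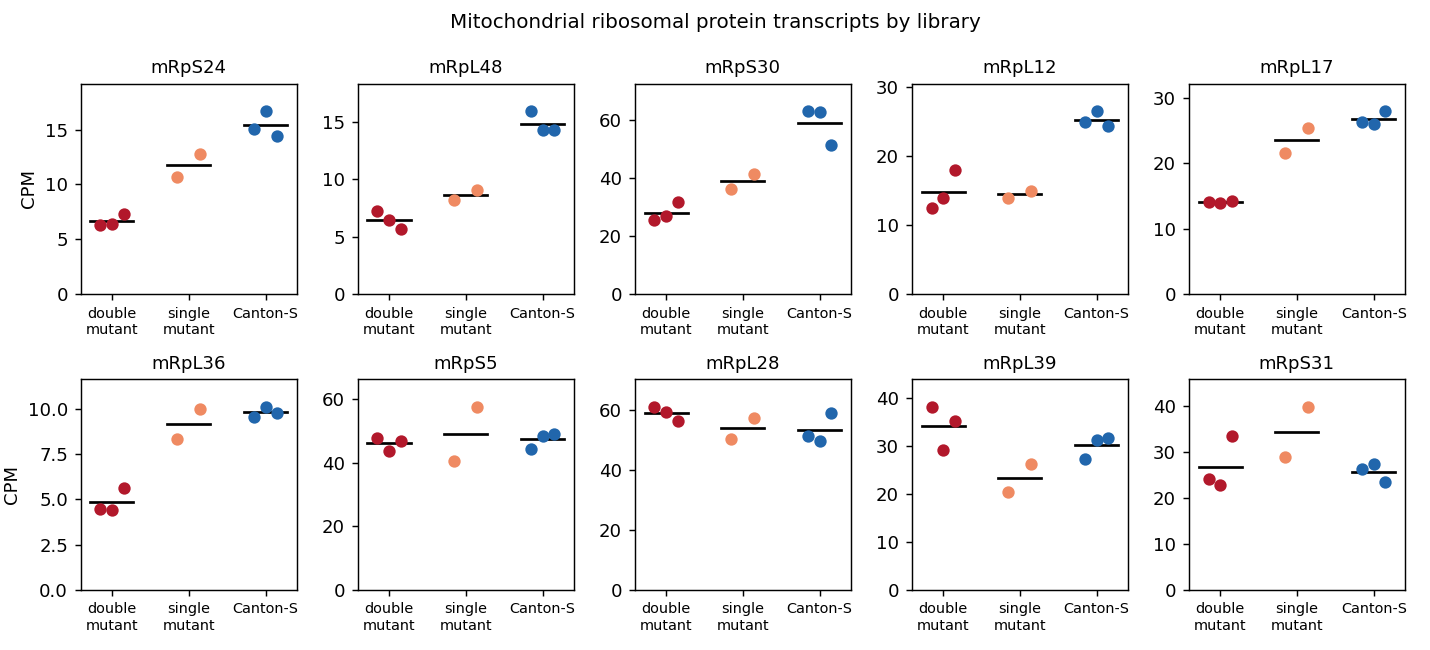
CPM by library (points) with group means (bars) for 10 mitochondrial ribosomal protein genes in the double mutant, the single mutant and Canton-S, on axes from 0. mRpS24, mRpL48 and mRpS30 step down without overlap, mRpL12 overlaps between the mutants, mRpL17 and mRpL36 are low in the double mutant, and mRpS5, mRpL28, mRpL39 and mRpS31 did not pass in the double mutant against Canton-S.

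Fly mitochondrial ribosomal proteins with other symbols also fell. tko, the S12 protein of the decoding centre, and bonsai, an S15 protein, are outside the naming rule. tko had 13.4, 14.5 and 15.7 CPM in the double mutant, 19.7 and 21.3 CPM in the single mutant, against 30.5, 31.8 and 27.8 CPM in Canton-S, with changes of -0.996 (SE 0.10, adjusted p = 8.93e-05) in the double mutant and -0.52 (SE 0.11, adjusted p = 0.0168) in the single mutant against Canton-S. bonsai had 15.1, 13.9 and 17.7 CPM in the double mutant, 22.97 and 23.6 CPM in the single mutant, against 32.6, 35.4 and 32.5 CPM in Canton-S, with changes of -1.07 (SE 0.10, adjusted p = 8.67e-05) and -0.51 (SE 0.12, adjusted p = 0.023). For both genes the 3 genotypes did not overlap. The single mutant calls of both were lost without Canton-S replicate 1 (adjusted p of 0.0613 for tko and 0.0650 for bonsai) or replicate 2 (0.0584 and 0.0755). They were also lost with the replicate number as a block (0.0636 and 0.0857), and without single mutant replicate 1 or 2.

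The ribosome works with translation factors, tRNA-charging enzymes and the machinery that keeps and reads the mitochondrial genome, all encoded in the nucleus. Of 10 mitochondrial translation factors tested, 7 fell and 1 rose in the double mutant (median -0.51), and 5 fell in the single mutant (median -0.62). Beside these and the counts that follow, 26.7% of all genes tested fell and 32.5% rose in the double mutant. In the single mutant 11.8% of all genes fell and 8.29% rose. mEFTs, the exchange factor of elongation factor Tu, averaged 17.2 ± 1.58 CPM in the double mutant, against 51.4 ± 5.996 CPM in Canton-S (change -1.53, SE 0.14, adjusted p = 6.49e-05). mEFG1, the translocation factor, averaged 25.4 ± 2.80 CPM in the double mutant, against 65.5 ± 4.17 CPM in Canton-S (change -1.34, SE 0.11, adjusted p = 3.8e-05), and mEFTu1, which delivers charged tRNA, 76.8 ± 5.02 CPM in the double mutant, against 124 ± 10.6 CPM in Canton-S (change -0.69, SE 0.09, adjusted p = 0.000305). mEFTu2 was the 1 that rose, by 0.45. Of 15 mitochondrial aminoacyl-tRNA synthetases 10 fell in the double mutant (median -0.52), among them AspRS-m (-1.04), CysRS-m (-0.90) and IleRS-m (-0.72), and 6 in the single mutant.

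Genes of mitochondrial DNA and RNA maintenance were mixed, with 7 of 16 lower and 3 higher in the double mutant (median -0.19), and 7 lower in the single mutant (median -0.47). The helicase Suv3 (-0.98) and the RNA-binding proteins bsf (-0.95) and rswl (-0.96) fell, whereas tam, the catalytic subunit of the mitochondrial DNA polymerase, rose by 0.86 in the double mutant but fell by 0.58 on the log2 scale in the single mutant. Among 13 regulators and stress genes tied to mitochondrial gene expression, 7 rose and 3 fell in the double mutant, against 32.5% and 26.7% of all genes tested. ewg, the fly relative of the factor NRF1 that in mammals acts on nuclear genes for mitochondria, averaged 702 ± 30.3 CPM in the double mutant, against 211 ± 22.3 CPM in Canton-S (change 1.74, SE 0.11, adjusted p = 7.17e-06). CPM per gene does not tell apart the spliced forms of ewg, so this rise does not show more of its protein. srl, the fly relative of the coactivator PGC-1, fell by 0.92, crc, the fly ATF4, rose by 0.85, and the mitochondrial protease Lon fell by 0.56. In the protein import list 5 of 8 genes fell in the double mutant (median -0.51), among them Tom40 (-0.77), Tom70 (-0.76) and Tim8 (-0.76).

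The respiratory chain and ATP synthase, some of whose subunits this ribosome makes, gave smaller medians. Of 66 nuclear genes of the respiratory chain and ATP synthase, 39 fell and 1 rose in the double mutant (median -0.32), but 2 fell and 0 rose in the single mutant (median -0.06). The shares of all genes that fell were 26.7% and 11.8%. The 3 with the smallest p in the double mutant were ATPsynCF6L (-1.19), ND-23 (-0.69) and SdhA (-0.67). In the single mutant the sizes for mitochondrial ribosomal proteins were a median of -0.39 and 21 falls of 72. The difference between these lists was not tested. Of 86 cytoplasmic ribosomal protein genes tested, 83 rose and 1 fell in the double mutant (median 0.69), and 68 rose and 2 fell in the single mutant (median 0.46). RpL4 averaged 1602 ± 5.71 CPM in the double mutant, against 892 ± 29.5 CPM in Canton-S (change 0.85, SE 0.08, adjusted p = 6.3e-05), and RpL22 (0.71) and RpL3 (0.76) followed by p.

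**Figure D5:**
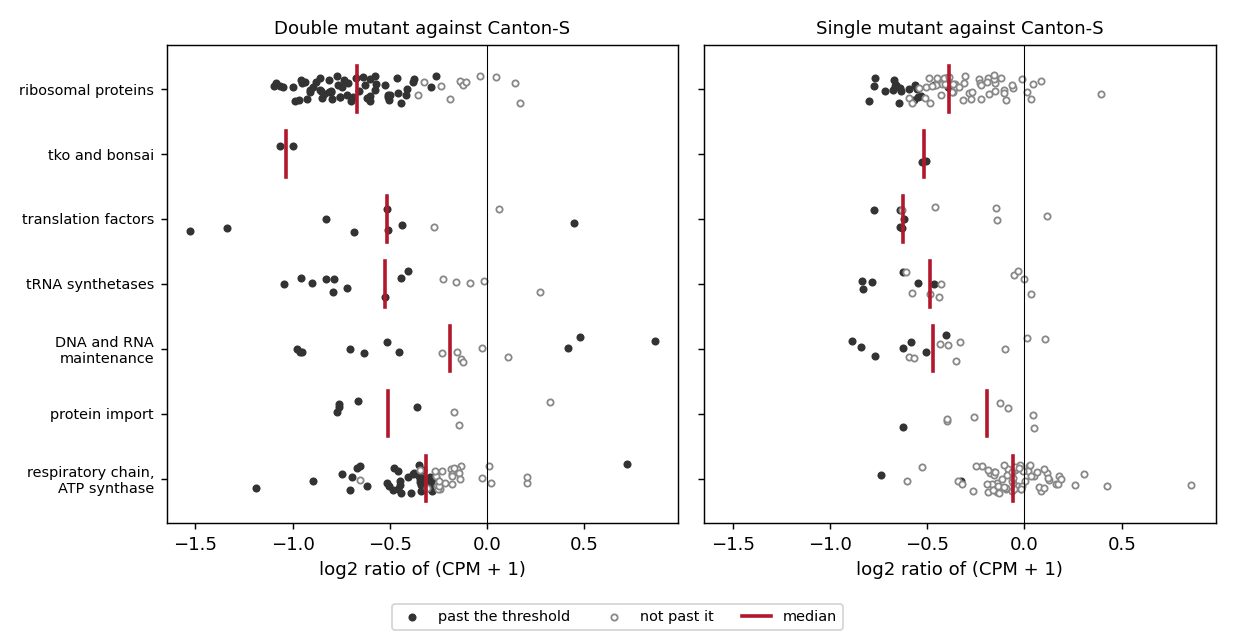
Log2 ratio of CPM + 1 of every gene tested in lists of mitochondrial genes, for the double mutant (left) and the single mutant (right) against Canton-S, filled where the adjusted p is under 0.05, with the median of each list as a bar. The ribosomal proteins have medians of -0.67 and -0.39, the translation factors -0.51 and -0.62, and the respiratory chain and ATP synthase genes -0.32 and -0.06.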

How the data were processed

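Total RNA of the L1 central nervous system was measured in 8 libraries. The aligner was HISAT2 and the genome dm6, per the submitters' processing notes. For the counter, its annotation and its use of strand, nothing is given in the sources used here. The authors deposited CPM per gene, without length correction. The low CPM steps gave whole reads for 100% of values, from which the reads behind each value were recovered. The tolerance was 0.01 and was widened in proportion to the count for high counts, so it checks little in the highest genes.

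The filter kept the 10575 genes that reached 1 CPM in 2 or more libraries. The main test was limma 3.58.1, run in R 4.3.3 on log2(CPM + 1) with its trend option, all 8 libraries and 3 genotype means. Benjamini-Hochberg adjustment ran over all genes, and the threshold was 0.05. The single mutant, with 2 libraries, borrows the spread of the others. The added 1 CPM understates changes of low genes. As alternatives, the quasi-likelihood test of edgeR 4.0.16 with TMM, and DESeq2 1.42.0, were run on the recovered reads. For the double mutant against Canton-S, the single mutant against Canton-S and the double against the single mutant, edgeR called 6404, 1979 and 4313 genes. DESeq2 called 6620, 2717 and 4904, and limma 6259, 2124 and 4593. Other alternatives were a pseudocount of 0.1 or of 5 CPM, no filter or one at a mean of 5 CPM, TMM, median-ratio and quantile scaling, the replicate number as a block, only the 2 groups compared, no trend, and libraries left out.

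Positions, exon lengths and overlaps come from Ensembl's BDGP6.54 annotation of the Release 6 assembly, where 72 of the 73 genes matched by gene ID and mRpS5 by symbol. The genes, lists, rules and role groups were chosen with earlier results of these data known. Lsp1beta was dropped from the gut markers and Mat1 from the maintenance list as misplaced, and Pnpt1 matched no gene. Genes named are the 8 largest falls in the double mutant against Canton-S (4 in each other comparison), rises by the same rule, the 4 smallest changes, the 4 highest and 4 lowest per kilobase, genes failing the filter, tko and bonsai, and 3 of each other list by p. Others were named for their role, with values seen. Numbers up to L36 and S21 were taken as the bacterial series.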

Additional observations from a re-analysis of the deposited data

How the results depend on the processing

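No called change and no median turned its direction: of 189 alternative values of the counts and medians 151 stayed close and 38 moved. Of 4662 alternative values of single genes 4100 kept direction and call, 290 lost the call and 135 gained it, and 137 changed sign in genes that were called neither there nor as reported. For the double mutant against Canton-S the median of -0.67 became -0.50 with a pseudocount of 5 CPM and -0.94 after quantile normalization, which moved the median of all genes from 0.07 to -0.11, so the difference between them was -0.74 and -0.83. Without 1 library each, the falls there numbered 50 to 62, with no rise, and the median ran from -0.75 to -0.61. For the single mutant against Canton-S the 21 falls became 12 with no filter and 9 after quantile normalization, and 29 without the pair of double mutant replicate 3 and single mutant replicate 2. Without 1 library each they numbered 4 to 24, and the median ran from -0.51 to -0.24. For the double against the single mutant the 16 falls became 32 in DESeq2, 25 with median-ratio scaling, 52 after quantile normalization, 7 with only the 2 groups compared and 5 without the pair of double mutant replicate 3 and single mutant replicate 2. Its 1 rise became 0 in edgeR, with TMM, median-ratio or quantile scaling and with only the 2 groups compared, and 2 without that pair. Its median of -0.26 became -0.41 in edgeR, -0.41 in DESeq2 and -0.60 after quantile normalization, against 0.14 over all genes (0.04 with TMM, 0.03 with median-ratio scaling, -0.07 after quantile normalization). Relative to all genes it was -0.40, -0.40 with TMM and median-ratio scaling, and -0.53 after quantile normalization. Over all genes of this comparison DESeq2 called 4904 and limma 4593. The share of all genes that fell is not given for the alternative fits, so their counts of falls have no background beside them. Without 1 library each, the falls numbered 4 to 25, the rises 0 to 1, and the median ran from -0.42 to -0.10. The causes of these moves were not tested.

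With the replicate number as a block, the falls were 5 for the single mutant against Canton-S and 9, with 0 rises, for the double against the single mutant. Libraries of the same number did not deviate together: double mutant and Canton-S pairs had correlations of -0.36, -0.12 and -0.31, single mutant and Canton-S pairs of 0.06 and 0.06, and double and single mutant pairs of 0.11 and -0.14. The numbers are thus not taken as pairs. Depth limits the lowest genes, with 94 reads in a library at the least.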
